A study of Rattus norvegicus with 8 samples.

Results

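ATP-binding cassette (ABC) transporters are membrane proteins that spend ATP to carry bile acids, lipids, drugs and other compounds across a membrane. The members were all array probes whose gene name is Abc followed by a letter from a to g and a digit. They came to 112 of 46883 probes and to 53 of 25512 gene names. Their transcripts were compared in liver RNA of male Sprague Dawley rats, 4 samples from animals kept for 12 weeks on a diet with 60% fat and 4 from animals on a normal diet (the controls). By the labels, animals of both groups weighed 180 to 200 g, with the time of weighing not given, and no age or transgene is named. Nothing in the labels states that the samples are separate animals, so the p-values cover the variation among these samples, which may be technical. The series asks which factors accompany the insulin resistance brought on by such a diet.

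In the liver, hepatocytes send bile salts, phospholipid, cholesterol and drug conjugates through ABC proteins of the canalicular membrane into bile. Other family members load cholesterol onto lipoproteins, return compounds to the blood, or serve mitochondria, peroxisomes and lysosomes. Subfamilies E and F have the ATP-binding domains but no membrane span, and act on ribosomes and translation.

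The tissue label was checked with hepatocyte markers. All 8 were bright enough to be tested and none passed the threshold. Their log2 changes, high-fat minus control, were above 0 in 3 and below 0 in 5, with a median of -0.05. They ran from -0.39 for Hnf4a to 0.98 for Cps1. Albumin (Alb) had a normalized log2 intensity of 7.22 ± 0.20 (SD, n = 4) in controls and 7.13 ± 0.18 (SD, n = 4) on the high-fat diet. A normalized log2 intensity is the log2 processed signal minus the array's 75th percentile, so 0 is that percentile and negative values lie below it. Between 50.4% (control replicate 1) and 71.9% (control replicate 4) of all probes passed as well above background per array. High-fat replicate 1 was the other dim array, at 56.3%. Levels are compared between samples for 1 probe at a time, since probes differ in how brightly they bind. The number of arrays limits the precision.

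Of the 53 genes, 43 had a probe well above background on at least 4 of the 8 arrays and were tested with limma, with p-values adjusted by Benjamini-Hochberg across the 31535 probes tested. Each gene stood for its tested probe with the highest mean, and 37 of the 43 such probes were well above background on all 8 arrays. At an adjusted p under 0.05, 1 of the 43 passed, Abcb1a, which was lower on the high-fat diet, against 0.877% of all 18587 tested genes in either direction (0.527% of all lower, 0.35% higher). By probe, 2 of 85 passed, both of Abcb1a, against 0.907% of all tested probes. At an unadjusted p under 0.05 there were 5, or 11.6%, against 15.6% of all genes. The groups did not overlap for 6 genes, against 11.1% of all genes. Of these, 3 had every high-fat sample above every control sample (4.86% of all genes), Abcc4 and Abcc6 among them, and Abcb1a, Abcc5 and Abcf1 had every one below (6.23% of all genes). The shares of the family at both of these looser marks, 11.6% and 14.0%, are near those of the whole array.

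**Figure D1:**
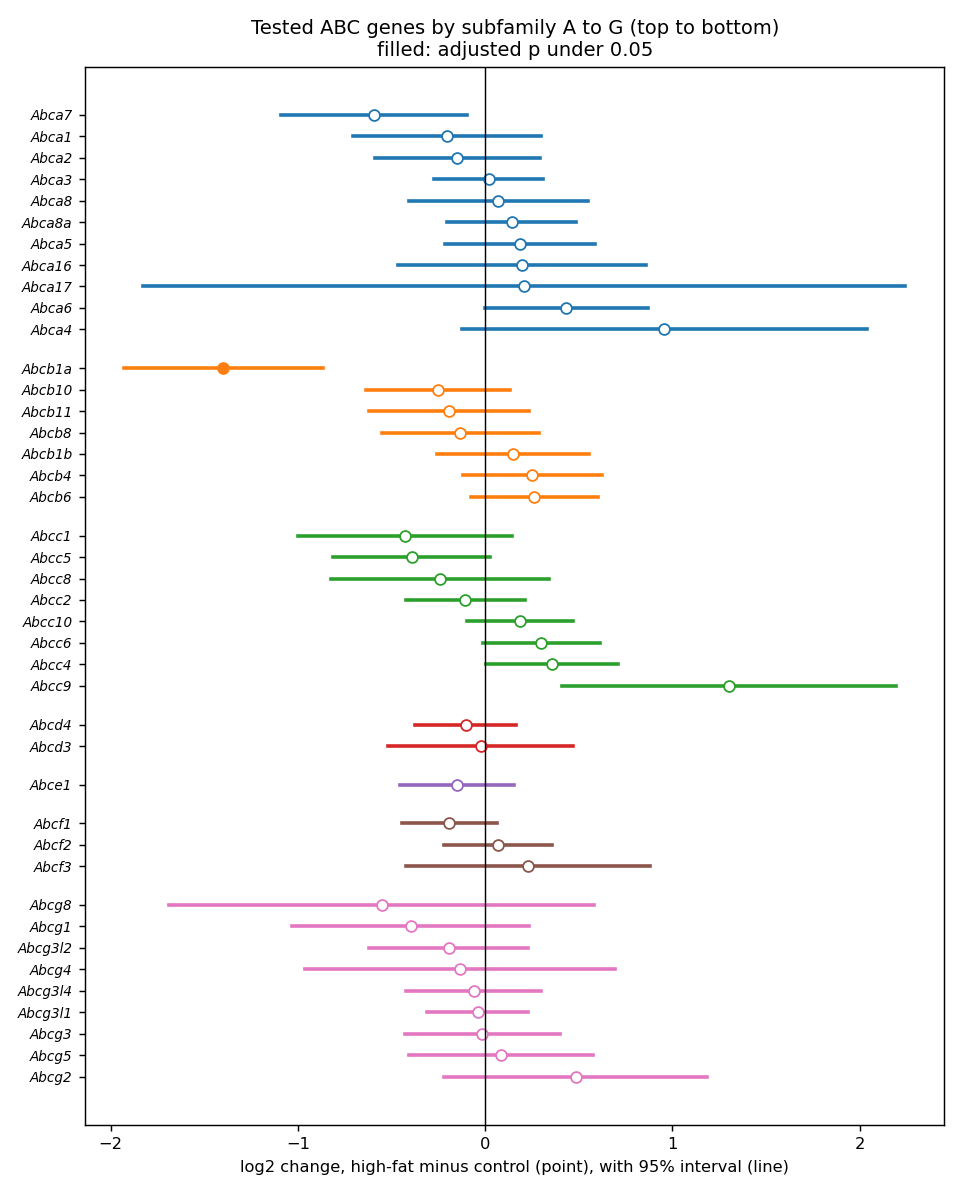
Log2 change (high-fat minus control, horizontal axis) of the tested ABC genes reported singly, each by its brightest probe, with its 95% interval as a line and subfamilies A to G from top to bottom. The filled point is Abcb1a at -1.40; most other intervals lie within -1 and 1.

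The size of the changes was that of other liver transcripts. The log2 change was above 0 in 21 of the 43 genes and below 0 in 22, with a median of -0.01 against 0.00 over all tested genes, and its median size was 0.20 against 0.21. By subfamily, the median was 0.14 over 11 tested ABCA genes, 0.01 over 8 ABCB, 0.04 over 8 ABCC, -0.02 over 3 ABCD, 0.07 over 3 ABCF and -0.06 over 9 ABCG genes, and the only ABCE gene was at -0.15. The 5 genes with an unadjusted p under 0.05 were in subfamilies A (1), B (2) and C (2). Samples of 1 diet varied with a median SD of 0.26 on the log2 scale, against 0.28 over all genes. The 95% interval of 34 of the 43 changes lay within -1 and 1, so a 2-fold change lay outside it. Changes of at least 2-fold were estimated for 2 genes, Abcb1a and Abcc9, against 3.24% of all genes.

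**Figure D2:**
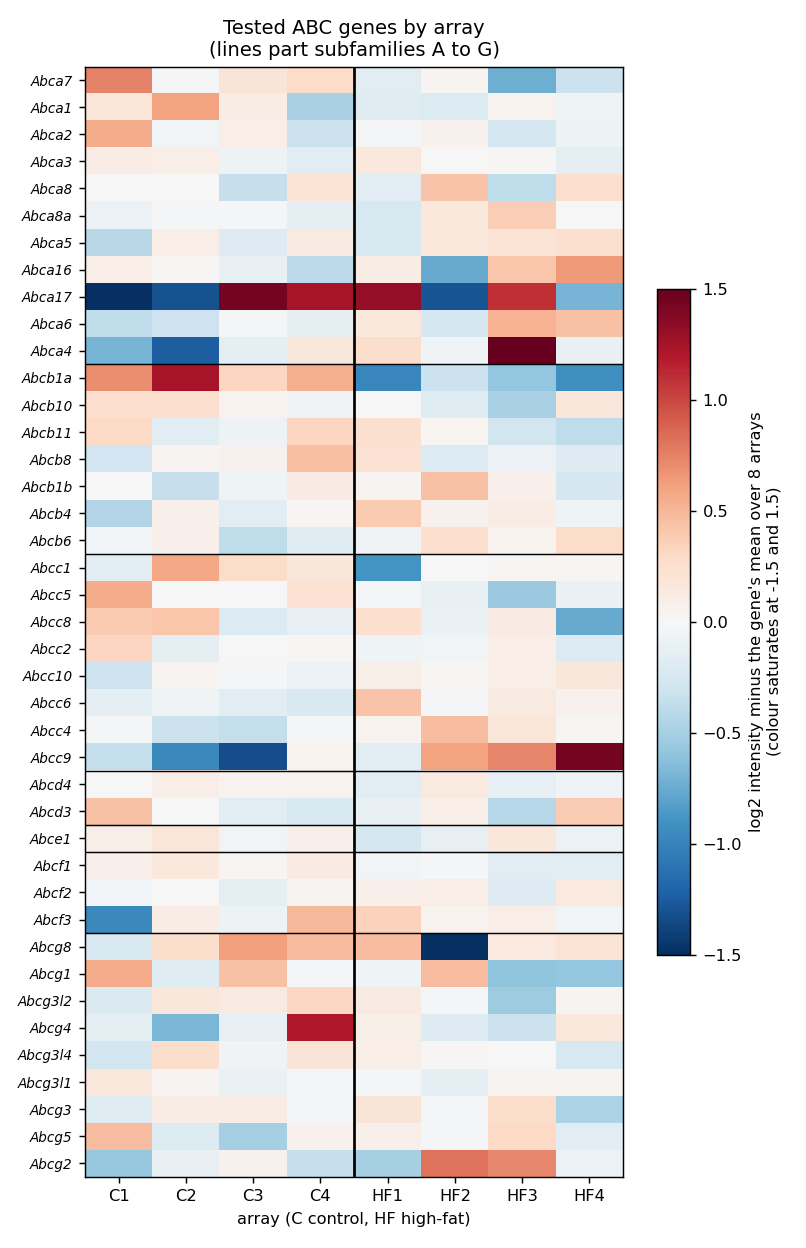
Normalized log2 intensity of the tested ABC genes reported singly, on the 8 arrays (C control, HF high-fat), each minus the gene's mean over the arrays, in colour, with the scale ending at -1.5 and 1.5. Abcb1a is above its mean on all 4 control arrays and below it on all 4 high-fat arrays; most other rows mix both colours within a diet.

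Abcb1a encodes P-glycoprotein, the multidrug exporter that moves drugs and other hydrophobic compounds out of cells, and was the gene that fell. It was read by 2 probes that share 58 of their 60 bases and so are not independent readings. The first 30 bases of one and the last 30 of the other are shown because the gene's result rests on this stretch. Over its full 60 bases, each probe is 83.3% A and T. Capitals mark bases held by both probes.
A_44_P279083: gtAAATATTTGATAATATATACTTTTATTT
GT_Rn_GE_00219682: ACTTTCTCATTTGTAACTATAACTGATTtc
The files place the first probe at chr4:21795859-21795918 of rn4, with no exon or UTR annotation. By GT_Rn_GE_00219682, the brighter one, control replicates 1 to 4 had normalized log2 intensities of -5.78, -5.24, -6.16 and -5.94, and the high-fat replicates -7.45, -6.80, -7.06 and -7.40. Every high-fat sample was below every control sample. The log2 change was -1.40 (SE 0.23, 95% interval -1.93 to -0.87, n = 4 per diet), and limma's adjusted p was 0.042. A_44_P279083 gave -6.81, -5.84, -6.76 and -6.66 in controls and -8.29, -7.98, -8.06 and -7.94 on the high-fat diet. Again the groups were apart, with a log2 change of -1.55 (SE 0.23, limma's adjusted p = 0.031).

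These are dim readings, some at background, so no fold is given. GT_Rn_GE_00219682 was well above background on control replicates 2, 3 and 4 and on high-fat replicates 2 and 3, and A_44_P279083 on the same 3 controls and on high-fat replicate 2. The lowest signal well above background was at -6.63 on control replicate 1 and -7.20 on high-fat replicate 1, and between -8.98 and -8.05 on the other arrays. Within the first and the second row of the slide, each with 2 arrays of either diet, the log2 difference of the brighter probe was -1.62 and -1.18. With normexp background correction and quantile normalization the log2 change was -0.45 (limma's adjusted p = 0.11). Leaving out any 1 array ended the call: limma's adjusted p was 0.098, 0.073, 0.078 and 0.080 when control replicates 1 to 4 were dropped in turn and 0.079, 0.078, 0.096 and 0.11 when high-fat replicates 1 to 4 were, with log2 changes from -1.52 to -1.22.

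**Figure D3:**
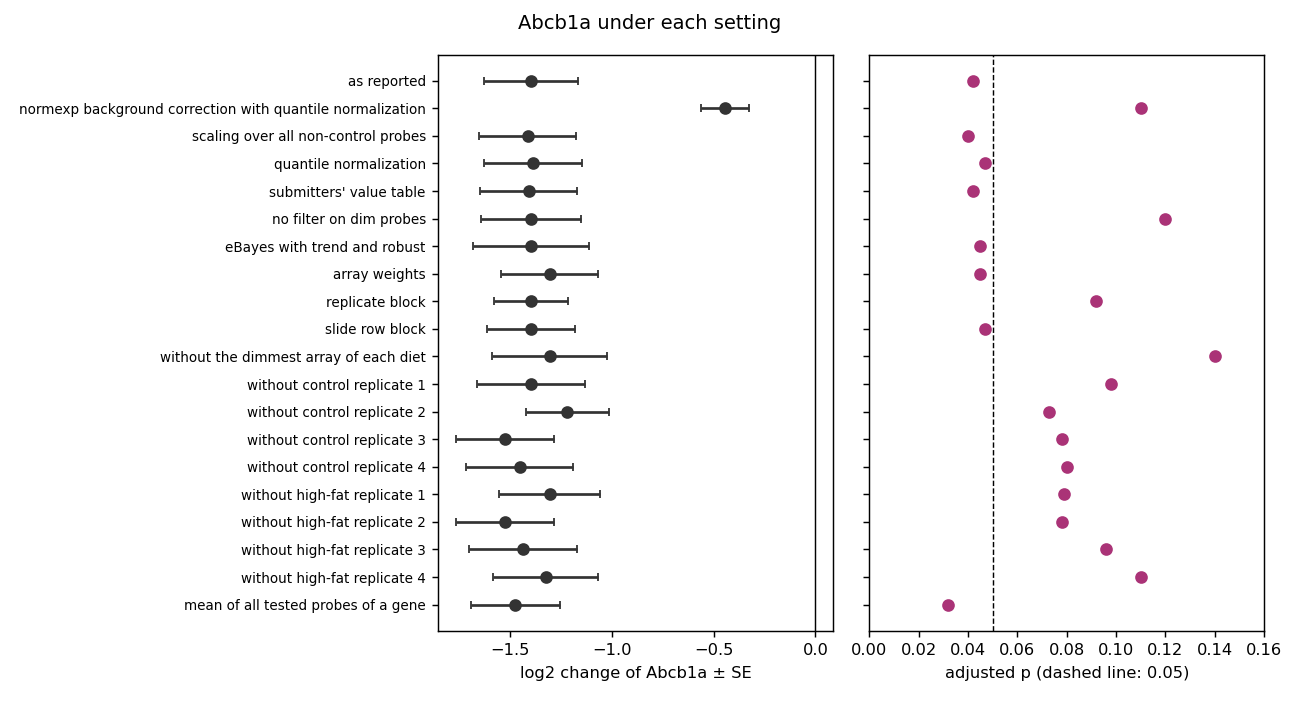
Abcb1a under the analysis as reported and 19 alternatives: left, the log2 change with its SE; right, limma's adjusted p, with the threshold of 0.05 dashed. All changes are below 0, from -1.52 to -0.45, and the adjusted p runs from 0.032 to 0.14.

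P-glycoprotein is also made by cells other than hepatocytes, so the markers of other cells are given beside it. Of these, only Cd3g and Lrat passed the threshold, against 0.877% of all tested genes. Of 6 cholangiocyte markers 5 were tested, all 5 with a log2 change below 0 (median -0.62) and none past the threshold; their mean level ranged from -4.08 to -3.05 in controls and from -4.53 to -4.01 on the high-fat diet. The 6 sinusoidal endothelial markers had 4 changes above 0 and 2 below, a median of 0.15, and mean levels of -0.99 to -0.41 in controls and -0.70 to -0.34 on the high-fat diet. Of 8 Kupffer cell and macrophage markers 7 had a change below 0 (median -0.22), with mean levels of 0.65 to 1.21 and -0.15 to 0.78. The changes were uneven: Marco was at -2.38, Vsig4 at -0.78 and Clec4f at -0.60, and the others ran from -0.26 to 0.21. Those 3 had every high-fat sample below every control sample, against 6.23% of all genes, and none passed the threshold. Erythroid markers were above 0 in 3 of 3 tested (median 1.14), with mean levels of 1.40 to 2.83 and 2.92 to 3.57. The 6 lymphocyte markers had a median of -0.24, with 1, Cd3g, past the threshold, and mean levels of -4.42 to -4.12 and -5.32 to -4.50. The -5.32 is that of high-fat replicate 4, which had no value for Nkg7 and so averages the other markers. Nkg7 had a mean of -2.97 on the other high-fat arrays, above that level, so -5.32 is not comparable with the rest. The 6 stellate markers had a median of -0.01, with 1 past the threshold, Lrat, which was higher on the high-fat diet and enters the mean levels of -4.34 to -4.13 and -3.36 to -2.96. All 4 Lrat control readings, from -10.0 to -7.61, lay below the lowest signal well above background on their arrays. Lrat thus entered the test through its high-fat readings alone. Of 5 enterocyte and pancreas markers 2 were tested and neither passed, with mean levels of -5.06 to -2.78 and -4.03 to -2.50. No listed marker on the array was below background throughout. Their part in the fall of Abcb1a was not tested, and in whole tissue fewer cells of a type and less RNA per cell cannot be told apart.

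Abcb1b encodes the second rodent P-glycoprotein and lies beside Abcb1a on chromosome 4. Its 3 probes are shown because they gave different pictures of the gene, which was taken up after its values were seen. Capitals mark the 35 bases that the first and second probes share, at chr4:21912155-21912214 and chr4:21912180-21912239 of rn4.
A_64_P010925: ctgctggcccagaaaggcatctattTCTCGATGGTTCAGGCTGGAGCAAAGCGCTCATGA
A_64_P039888: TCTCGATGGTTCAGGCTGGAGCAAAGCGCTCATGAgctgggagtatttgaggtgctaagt
GT_Rn_GE_00165086: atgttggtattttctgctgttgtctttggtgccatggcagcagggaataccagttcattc
By A_64_P010925 the controls were at 1.60, 1.27, 1.55 and 1.73 and the high-fat samples at 1.65, 2.05, 1.68 and 1.35, in normalized log2 intensity. These groups overlapped, with a log2 change of 0.15 (SE 0.18, limma's adjusted p = 0.76). A_64_P039888, with 35 of its 60 bases in common with that probe, was at -2.74, -4.06, -0.75 and 0.36 in controls and at -2.32, 0.85, 0.90 and -0.77 on the high-fat diet. The third probe was at -7.58, -8.86, -6.17 and -4.24 in controls and at -6.71, -4.48, -4.10 and -5.09 on the high-fat diet. Control replicate 2, control replicate 1 and high-fat replicate 1 were the 3 lowest arrays by both of these probes, while by A_64_P010925 control replicate 1 and high-fat replicate 1 lay in the middle of the range. The third probe was not well above background on control replicates 1 and 2 and on high-fat replicate 1, its 3 lowest readings. The SD within a diet was 0.24 for the first probe, 1.77 for the second and 1.62 for the third. The log2 changes of the variable probes were 1.46 (95% interval -0.94 to 3.86) and 1.62 (-0.58 to 3.81), with limma's adjusted p = 0.57 and 0.48. With normexp background correction and quantile normalization they were 1.28 and 0.51. A statement on Abcb1b therefore rests on the choice of probe.

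**Figure D4:**
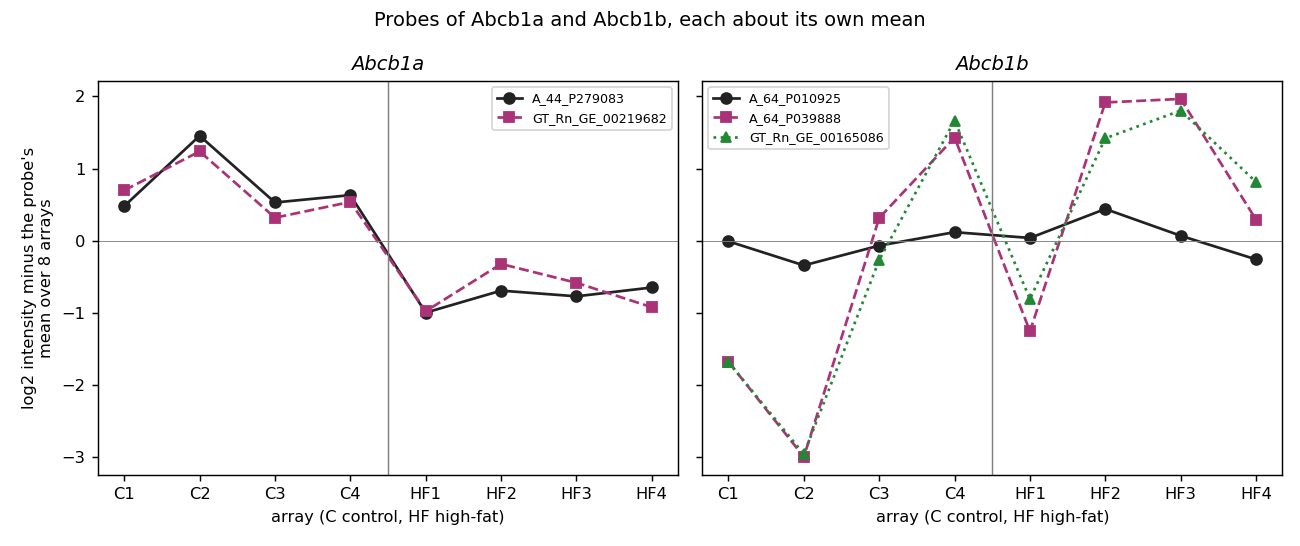
Normalized log2 intensity of the 2 Abcb1a probes (left) and the 3 Abcb1b probes (right) on each array (C control, HF high-fat), each minus the probe's own mean over the 8 arrays. The Abcb1a probes step down between the diets; 2 of the Abcb1b probes vary within a diet with an SD of 1.77 and 1.62, the third with 0.24.

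The promoters of the 2 neighbours, the 250 bases before each start in RefSeq (GRCr8), are shown because only Abcb1a passed the test. Capitals mark ATTGG, the inverted CCAAT box, GGGCGG, the GC box, or their reverse complements, and the 2 motifs do not overlap each other here. The windows are chr4:26397649-26397898 and chr4:26280030-26280279 of GRCr8, both on the minus strand.
Abcb1a: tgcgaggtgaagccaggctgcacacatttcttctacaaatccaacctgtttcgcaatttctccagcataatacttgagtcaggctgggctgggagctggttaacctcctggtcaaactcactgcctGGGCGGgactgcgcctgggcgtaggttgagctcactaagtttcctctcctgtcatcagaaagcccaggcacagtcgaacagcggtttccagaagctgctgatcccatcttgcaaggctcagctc
Abcb1b: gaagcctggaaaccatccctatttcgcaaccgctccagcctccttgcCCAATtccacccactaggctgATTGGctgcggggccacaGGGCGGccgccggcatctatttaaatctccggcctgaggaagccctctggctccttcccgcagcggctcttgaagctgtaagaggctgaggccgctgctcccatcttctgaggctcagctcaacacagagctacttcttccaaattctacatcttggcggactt
On both strands together, the Abcb1b window held 2 matches to ATTGG, in opposite orientations, and 1 to GGGCGG, and the Abcb1a window 0 and 1. On either strand, ATTGG was found in 35.5% of 19005 promoters of coding genes and in 14 of 43 family promoters (32.6%), and GGGCGG in 40.3% and in 25 of 43 (58.1%).  The 43 are those of the 53 gene names with a matched promoter, not the 43 tested genes, and Abcb11 is among those without a match. All motif hits are letter matches in a short window.

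Among the other exporters of the canalicular membrane, no gene passed the threshold. The group as listed holds 8 genes, all tested, with 1 lower (Abcb1a, against 0.527% of all tested genes), 7 that did not pass, and a median log2 change of -0.01. Abcb11, the bile salt export pump, had normalized log2 intensities of 1.95, 1.48, 1.58 and 1.97 in controls and 1.88, 1.68, 1.37 and 1.27 on the high-fat diet. The ranges overlapped, and the log2 change was -0.19 (SE 0.19, 95% interval -0.62 to 0.24, limma's adjusted p = 0.69), with -0.23 by a second probe. With 1 array left out it ran from -0.30 (high-fat replicate 1) to -0.099 (high-fat replicate 4). Abcb4, which flips phosphatidylcholine into bile, was at -0.92, -0.41, -0.65 and -0.47 in controls and at -0.10, -0.42, -0.37 and -0.55 on the high-fat diet. Control replicate 1 was the lowest and high-fat replicate 1 the highest sample of Abcb4, and the rest lay together. Its log2 change was 0.25 (SE 0.16, 95% interval -0.12 to 0.62, limma's adjusted p = 0.52), and 0.058 without those 2 arrays. Abcc2, the exporter of bilirubin glucuronides and other conjugates, was at 3.71, 3.26, 3.39 and 3.42 in controls and at 3.33, 3.34, 3.49 and 3.18 on the high-fat diet. It was among the steadier members, with an SD of 0.16 within a diet, and its log2 change of -0.11 had a 95% interval of -0.43 to 0.21 (limma's adjusted p = 0.78). It was -0.017 without control replicate 1 and -0.17 without control replicate 2.

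**Figure D5:**
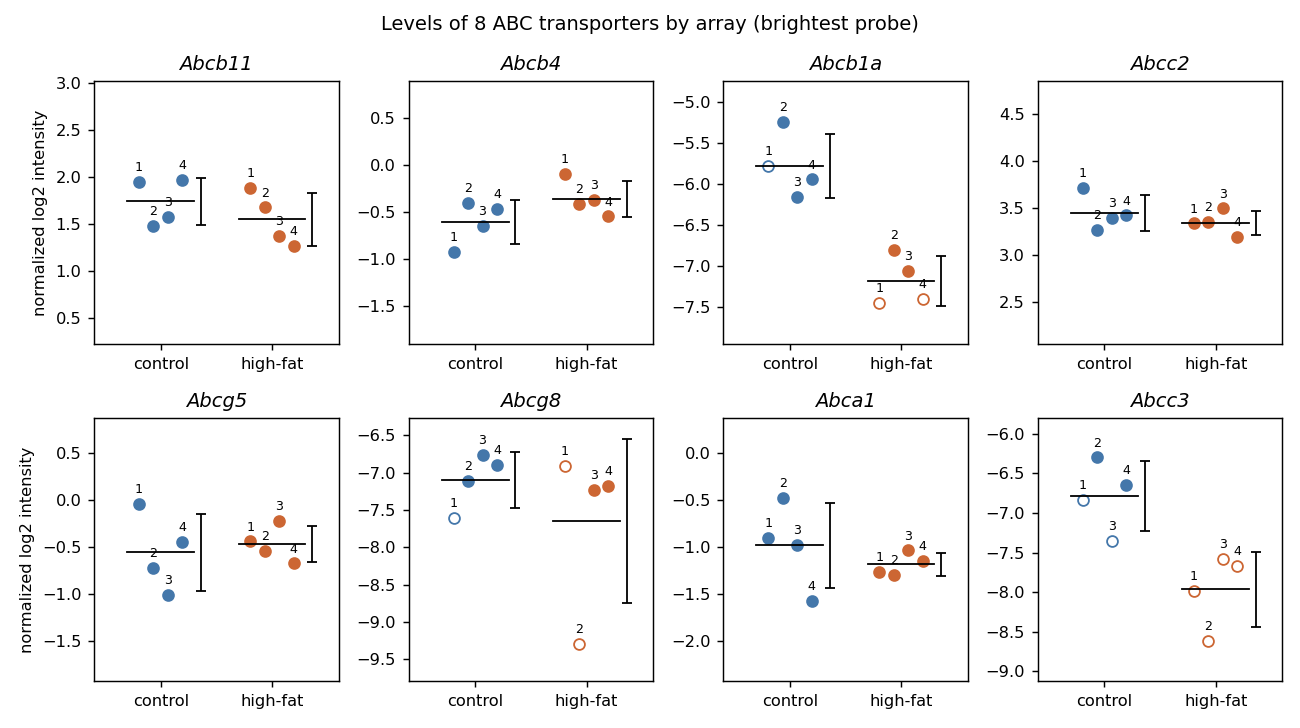
Normalized log2 intensity (vertical axis, with its own range in each panel) of the 8 genes named by rule, by diet, with the mean as a line and the SD as a bar (n = 4 per diet); numbers give the replicate, and open points were not well above background. Abcb1a separates by diet with controls from -6.16 to -5.24 and high-fat samples from -7.45 to -6.80, while Abcb11, Abcb4, Abcc2, Abcg5, Abcg8 and Abca1 overlap.

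Abcg5 and Abcg8 join into the sterol transporter that secretes cholesterol and plant sterols into bile. Abcg5 was at -0.04, -0.71, -1.0 and -0.45 in controls and at -0.44, -0.54, -0.21 and -0.67 on the high-fat diet. All high-fat samples lay inside the control range, with a log2 change of 0.08 (SE 0.22, limma's adjusted p = 0.90) that was -0.066 without control replicate 3. Abcg8 was dim, above background on 3 control and 2 high-fat arrays, at -7.61, -7.11, -6.76 and -6.90 in controls and at -6.91, -9.29, -7.23 and -7.17 on the high-fat diet. High-fat replicate 2 stood alone at the bottom. Its log2 change was -0.55 (SE 0.50, 95% interval -1.69 to 0.58, limma's adjusted p = 0.66), and -0.0067 without that array. Abcg2, the breast cancer resistance protein, which exports urate and sulfated compounds, was at -2.64, -2.18, -2.01 and -2.41 in controls and at -2.56, -1.25, -1.34 and -2.15 on the high-fat diet. High-fat replicates 2 and 3 were the highest samples and the other two lay within the control range, so the log2 change of 0.48 (SE 0.31, limma's adjusted p = 0.51) did not exceed the spread.

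Multidrug resistance proteins of the blood-facing and other membranes numbered 7, with 5 tested and none past the threshold (limma). Abcc3, which returns conjugates from the hepatocyte to blood, was too dim to be tested. Its probe GT_Rn_GE_00216416 was at -6.83, -6.30, -7.35 and -6.64 in controls and at -7.99, -8.62, -7.58 and -7.67 on the high-fat diet, above background on 2 control arrays and on 0 high-fat arrays. The readings did not overlap, but most were not well above background. Its other probe, A_64_P033761 (chr10:82987122-82987181, rn4), was above background on control replicate 4 alone. With so few readings above background in either diet, no fold is given.

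Abcc4, an exporter of bile acids and cyclic nucleotides, was at -3.76, -4.06, -4.10 and -3.76 in controls and at -3.69, -3.28, -3.56 and -3.73 on the high-fat diet (A_64_P057340, chr15:103384864-103384923, rn4). The groups were apart by little, with a log2 change of 0.36 (SE 0.15, limma's adjusted p = 0.32), and its other 2 probes gave 0.53 and 0.65 with overlap. Abcc6, the liver ATP-release protein whose loss causes soft-tissue calcification, was at 1.67, 1.75, 1.65 and 1.58 in controls and at 2.25, 1.78, 1.95 and 1.88 on the high-fat diet. All high-fat samples were the higher ones, high-fat replicate 2 only narrowly, and the log2 change was 0.30 (SE 0.14, limma's adjusted p = 0.34); a second probe gave 0.022. Abcc5, an exporter of organic anions and nucleotides, was at -1.22, -1.77, -1.78 and -1.55 in controls and at -1.79, -1.89, -2.34 and -1.87 on the high-fat diet. Its groups touched without overlap, with a log2 change of -0.39 (SE 0.18, limma's adjusted p = 0.36) and of -0.021 by a second probe. For Abcc5 and Abcc6 the separation was thus seen by 1 of 2 probes. Abcc1 and Abcc10 gave log2 changes of -0.43 and 0.19, both with overlap.

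The 4 genes of cellular cholesterol and phospholipid efflux all had a log2 change below 0 (median -0.30), with none past the threshold and 1, Abca7, at an unadjusted p under 0.05 (limma). Abca1, which passes cholesterol to apolipoprotein A-I and so starts high-density lipoprotein, was at -0.90, -0.48, -0.98 and -1.57 in controls and at -1.27, -1.29, -1.03 and -1.15 on the high-fat diet. The high-fat samples lay inside the control range, and the log2 change was -0.20 (SE 0.22, 95% interval -0.71 to 0.30, limma's adjusted p = 0.72), with -0.25 by a second probe. It was -0.036 without control replicate 2 and -0.40 without control replicate 4. Abca7, a relative with roles in phagocytosis and phospholipid efflux, was at -3.09, -3.86, -3.64 and -3.55 in controls and at -4.0, -3.79, -4.57 and -4.16 on the high-fat diet (chr7:11204084-11204261, rn4). Only high-fat replicate 2 reached the control range, and the log2 change was -0.59 (SE 0.22, limma's adjusted p = 0.25). A second probe of Abca7 gave -0.24 with overlap (SE 0.27, limma's adjusted p = 0.73). Abcg1, which hands cholesterol to mature lipoprotein particles, was at 0.61, -0.14, 0.49 and 0.03 in controls and at -0.02, 0.51, -0.56 and -0.53 on the high-fat diet. Its log2 difference was 0.0077 in the first slide row and -0.81 in the second, and -0.40 in all (SE 0.28, limma's adjusted p = 0.56). Abcg4 was dim, above background on 3 control and 3 high-fat arrays. Its log2 change was -0.13 (SE 0.36, 95% interval -0.96 to 0.69), so its sign says little. Since macrophages also make Abca1, Abca7 and Abcg1, the Kupffer cell and macrophage values above stand beside this group; their part in it was not tested.

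The mitochondrial members, which serve haem synthesis and other mitochondrial metabolism, numbered 4, all tested and none past the threshold (limma). By brightest probes, Abcb6 was at 0.26, Abcb8 at -0.13 and Abcb10 at -0.25, all with overlap. Another Abcb6 probe, GT_Rn_GE_00216434, gave 0.55 without overlap (SE 0.16, limma's adjusted p = 0.16), and a further one gave 0.19 with overlap. Second probes of Abcb8 and Abcb10 gave -0.055 and 0.081, with overlap.

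Peroxisomal and related members, which import very-long-chain and branched fatty acids or handle cobalamin, numbered 4, with 3 tested and none past the threshold or at an unadjusted p under 0.05 (limma). Abcd3, an abundant peroxisomal membrane protein, had a log2 change of -0.02 (95% interval -0.52 to 0.47). Abcd4, the lysosomal cobalamin transporter, varied little, with controls from -1.97 to -1.87, high-fat samples from -2.14 to -1.83 and a log2 change of -0.10 (95% interval -0.38 to 0.17, limma's adjusted p = 0.74). Abcd2 was above background on 1 control and 1 high-fat array and was not tested.

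Abcc8 and Abcc9 are the sulfonylurea receptors, regulatory subunits of ATP-sensitive potassium channels, and neither passed the threshold. By brightest probes, Abcc9 had the largest estimated rise of the family, at -4.52, -5.13, -5.49 and -4.11 in controls and at -4.33, -3.55, -3.43 and -2.73 on the high-fat diet (A_44_P455479). Only high-fat replicate 1 fell within the control range, and the log2 change was 1.30 (SE 0.39, 95% interval 0.41 to 2.19, unadjusted p = 0.0095, limma's adjusted p = 0.17). A dimmer probe of the gene gave 0.56 (SE 0.40, limma's adjusted p = 0.56). Abcc9 is known from smooth muscle and pericytes, and the stellate markers stand beside it. Lrat alone of these passed the threshold and was higher, with all its control readings at background. Rgs5 was at 0.62, Dcn at 0.08, Col1a1 at -0.10, Acta2 at -0.52 and Des at -0.70 on the log2 scale. Their part in the Abcc9 values was not tested. Abcc8 had a log2 change of -0.24 with overlap.

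Of the remaining subfamily A genes, Abca6, one of a cluster of lipid-responsive genes that lies with Abca5, Abca8a and Abca9 on chromosome 10, had the smallest p after Abca7. It was at -1.54, -1.48, -1.19 and -1.30 in controls and at -1.0, -1.42, -0.64 and -0.72 on the high-fat diet (A_44_P222981, chr10:99629713-99629772, rn4). High-fat replicate 2 alone lay in the control range, and the log2 change was 0.43 (SE 0.19, limma's adjusted p = 0.33). By a second probe of Abca6 the groups did not overlap, with a log2 change of 0.51 (SE 0.15, limma's adjusted p = 0.17). The lysosomal and peptide group, Abca2, Abca3, Abca5 and Abcb9, had 3 tested genes with log2 changes of -0.15, 0.02 and 0.19. Abca17, a dim gene, varied most within a diet among the brightest probes, with an SD of 1.5 and a 95% interval of -1.83 to 2.24.

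The 4 members without a membrane span had a median SD within a diet of 0.13, with Abcf3 apart at 0.45, and none passed the threshold or had an unadjusted p under 0.05 (limma). Abcf1, which acts in translation initiation, was at 2.49, 2.58, 2.44 and 2.54 in controls and at 2.38, 2.40, 2.24 and 2.26 on the high-fat diet. Every high-fat sample was lower, but by little, with a log2 change of -0.19 (SE 0.11, 95% interval -0.45 to 0.06, limma's adjusted p = 0.46), and a second probe gave -0.32, also without overlap. Abce1, a ribosome recycling factor, had a log2 change of -0.15 (SE 0.13, limma's adjusted p = 0.65), and Abcf2 of 0.07. Abcf3 had control replicate 1 at -3.31 and the other controls from -2.41 to -1.86, with high-fat samples from -2.38 to -2.0. Its log2 change was 0.23, and -0.059 without that control array (limma's adjusted p = 0.77 and 0.93).

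The Abcg3 group consists of rodent copies on chromosome 14 that resemble each other closely, so a probe may read more than its named gene. Abcg3, Abcg3l1, Abcg3l2 and Abcg3l4 had log2 changes of -0.01, -0.04, -0.20 and -0.06, and none passed the threshold. Abcg3l3 (chr14:5990395-5990454, rn4) was above background on control replicate 4 only and on 0 high-fat arrays, and was not tested. A further 6 names, Abca9, Abca12, Abca13, Abca15, Abcb5 and Abcb9, were well above background on no array. Abcc12 was so on 1 control and 2 high-fat arrays and was not tested.

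Probes of a gene mostly pointed the same way. Several tested probes were present for 37 genes, and in 30 their changes had 1 sign. The other 7 include Abca2, Abca16, Abcb10, Abcd3, Abcg3 and Abcg3l4. In 9 genes a pair of probes overlapped in sequence. For Abca9 and Abcb9 no probe was tested, and for the rest agreement between the overlapping probes says little. The widest spans between the changes of a gene's probes were 1.47 on the log2 scale for Abcb1b and 1.27 for Abca16.

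The transporters and regulators that work with the family were listed apart. The uptake and basolateral export list had 6 genes, and its basolateral exporters, Slc51a and Slc51b, had no probe under the names used. The 4 genes on the array were uptake carriers and were all tested, each with a log2 change above 0 (median 0.37) and none past the threshold. Slco1b3 and Slco1a1, which take organic anions up from blood, were the nearest, at 0.74 and 0.54 with limma's adjusted p = 0.070 and 0.076, and Slc10a1, the bile acid uptake carrier, was at 0.06. Of 12 nuclear receptors and factors, all tested, 1 was lower and 11 did not pass, against 0.527% of all tested genes called lower. Srebf2, the factor that turns on cholesterol synthesis and uptake, fell from 0.33 ± 0.14 (SD, n = 4) in controls to -0.49 ± 0.21 (SD, n = 4) on the high-fat diet, a log2 change of -0.82 with limma's adjusted p = 0.049. That is just under the threshold, and Srebf2 was not followed under the alternative settings. Nr1h4, the bile acid receptor that controls Abcb11, was at 0.10, and Nr1h3, the liver X receptor that controls Abca1 and Abcg5, at -0.35. Of the 12 changes 7 were above 0 and 5 below. The largest rise was that of Nr1i3, at 0.81 (SE 0.38, limma's adjusted p = 0.36), and Nr1i2 was at 0.51 (SE 0.31, limma's adjusted p = 0.49). Of the linked lipid genes 5 of 7 were tested and none passed, with Cyp7a1, the rate-limiting enzyme of bile acid synthesis, at 0.60 (SE 0.70). Atp8b1, the canalicular lipid flippase, was at -0.27. The 3 ABC proteins with other symbols, Cftr, Tap1 and Tap2, had changes of -0.71, -0.37 and -0.94 and did not pass.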

How the data were processed

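The members and lists were chosen with earlier results of these data known. Per the file headers, the authors' intensity values came from Agilent Feature Extraction 10.7.3.1, with background subtracted and probe coordinates on rn4. The deposited table of log2 values matched these signals scaled by the 75th percentile over every non-control probe (correlation at least 0.999, at least 98.47% of values within 0.05 per array), with its centring per probe not stated. Its column medians were -3.10, -3.21, -3.14 and -3.17 for controls and -3.14, -3.20, -3.16 and -3.20 for high-fat samples. It served as an alternative.

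Control and outlier-flagged spots were dropped, none was saturated, and spots of a probe were averaged as log2. Each array was set to the 75th percentile over probes so bright on all 8 arrays that each was well above background (47.9%). A probe counted as well above background where that held for most of its unflagged spots, ties included, and those so on at least 4 arrays went into limma 3.58.1, lmFit then eBayes (R 4.3.3, two-sided, adjusted p threshold 0.05), after a test on simulated data. All arrays lay on 1 slide. Accessions of 90 ABC probes (80.4%) matched a gene of the RefSeq GRCr8 table, always with the same symbol. Genes named are the 8 given by the choice of members, every gene past the threshold or without overlap, the pair with the smallest p per subfamily, and those below background throughout 1 diet; the rest are said to be chosen later or belong to fixed groups. Single values of some members are not reported here, though the counts include them. Alternatives changed background correction, scaling, filter, probe summary, variance model, weights, blocks and arrays. Same-numbered arrays had correlated deviations of -0.12, 0.26, 0.23 and 0.01, so the numbers were not taken to pair samples.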

Additional observations from a re-analysis of the deposited data

Results flagged for a closer look

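Of 183 sets of 4 values (each tested probe's controls or high-fat samples, and subfamily means), 9 held a sample whose distance from the rest exceeded Dixon's 95% limit for 4 samples. Chance alone gives about 1 in 20. In controls these were replicate 1 for Abca16 by A_64_P042925, at a normalized log2 intensity of -2.33 with the others from -6.59 to -6.55, and replicate 2 for Abcb1a by A_44_P279083, at -5.84 with the others from -6.81 to -6.66. High-fat replicate 1 stood apart for Abca3 by A_43_P16685, at -2.60 against -3.25 to -3.21, for Abca7 by GT_Rn_GE_00240056, at -3.98 against -4.18 to -4.15, and for Abcc1 by A_64_P117031, at -4.41 against -3.53 to -3.49. It did so too for the mean of the tested ABCC genes, at -1.68 against -1.56 to -1.54. High-fat replicate 2 stood apart for Abcc5 by A_64_P038192, at -5.44 against -5.03 to -4.96, for Abcg1 by A_44_P237994, at 0.078 against -0.61 to -0.52, and for Abcg8 by GT_Rn_GE_00217653, at -9.29 against -7.23 to -6.91.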

How the results depend on the processing

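Over all genes, limma called 163 as reported, 306 with normexp and quantile normalization, 5 with no filter on dim probes, 331 with probes above background on all 8 arrays, 335 with trend and robust eBayes, 98 with the slide row as a block, 14 without the dimmest array of each diet, and 16 to 89 with 1 array left out. With the replicate number as a block (replicate block) it called 1 gene over all and 0 ABC genes, Abcb1a having an adjusted p of 0.092; only replicate number 2 correlated best with its own number. ABC genes called were 1 in 7 of 20 alternatives and 0 in 13 (0 to 0 in the leave-one-out fits), where 3 to 9 had an unadjusted p under 0.05. Abcb1a kept its direction in all 19 alternatives that tested it. Its adjusted p was 0.12 with no filter and 0.14 without the dimmest arrays, and it was not tested under the filter on all 8 arrays. The median change of ABC genes ran from -0.066 (without control replicate 3) to 0.018 over all alternatives. Signs turned for Abcf3 (-0.14 without the dimmest arrays, -0.059 without control replicate 1, up to 0.42 without control replicate 4) and Abcg5 (-0.066 without control replicate 3, up to 0.25 without control replicate 1). The causes were not tested. The other genes taken by the naming rule kept their sign and stayed short of the threshold under the alternatives that tested them. Genes outside the rule were not followed, though Abcd3 was at 0.019 with normexp. Signal over background limits Abcb1a, Abcg8, Abcc3 and the third probe of Abcb1b.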
